A study of Mus musculus with 10 samples.

Results

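Knockdown of Ino80 was set against knockdown of Ino80e in mouse embryonic stem cells. The comparison rests on 4 of the 10 arrays in the series: the 2 labelled as Ino80 siRNA and the 2 labelled as Ino80e siRNA, chosen by sample title. The cells were J1, an established mouse embryonic stem cell line, without any labelled genetic change. They were kept in ESGRO medium, moved to M15 medium for transfection, and collected 96 hours (day 4) after a small interfering RNA (siRNA) had been delivered. The other 6 arrays, 2 each for a non-targeting siRNA (NT), Ino80b siRNA and Ino80c siRNA, entered the same fit and served as reference levels. Replicates of a group are called biological in the design text, which does not say whether they came from separate cultures or transfections, so that the spread between them may be partly technical.

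INO80 is a chromatin remodelling complex that uses ATP to move nucleosomes and to edit their histone variant content. The Ino80 gene encodes the ATPase on which the rest of the complex assembles, whereas Ino80e encodes a small accessory subunit. In embryonic stem cells the complex is known for occupying genes that keep the cells self-renewing. Comparing the ATPase with an accessory subunit asks whether losing either of them has the same effect on expression.

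Every level below is a log2 signal minus the 75th percentile of its array, and every difference is Ino80 knockdown minus Ino80e knockdown on that scale unless another pair is named. Errors are standard errors of the fit, with n = 2 arrays in each group. A gene is called at a limma p under 0.05 after Benjamini-Hochberg adjustment over all 20662 genes tested. With 2 arrays against 2, an exact permutation test of a single gene cannot go below p = 0.333, so calls rest on the spread shared across genes. The Ino80 arrays lay on one slide together with the Ino80b arrays, and the Ino80e arrays on another together with the Ino80c arrays, each slide with a scan time of its own. Slide and knockdown therefore cannot be told apart in the plain difference. The NT arrays lay alone on a further slide, so the same holds for every comparison with NT. Less RNA per cell and fewer cells of a kind cannot be told apart either.

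The probes of both targeted genes come first because they check the labels. Their opening 30 of 60 bases are shown as the scanner files give them, with mm7 positions and the strand implied by the order of the file's coordinates. The Ino80 gene has 3 probes, and the brightest of them stood for the gene.
Ino80 brightest probe, chr2:119114157-119114216, minus strand: gcgggccagcctctaatttgcacacctgaa
Ino80 second probe, chr2:119123739-119123798, minus strand: ttctggtgggaacttcaaaccagatacctt
Ino80 dimmest probe, chr2:119147677-119147736, minus strand: actcggctcaagtctcaaggacatagggtc
Ino80e only probe, chr7:122948998-122949057, minus strand: ctttagaagagcagctacgcagggctggga
Whether these positions are exonic or in a UTR was not analysed here, since no annotation of that build was used.

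The Ino80 transcript read 1.31 and 1.09 on the Ino80 knockdown arrays, 2.45 and 2.31 on the Ino80e knockdown arrays, and 2.43 and 2.36 on the NT arrays. At this brightest probe both Ino80 knockdown arrays lay below every other array shown, and the Ino80e knockdown arrays lay with NT. The difference was -1.18 ± 0.13 (adjusted p = 0.00787). Relative to NT, 43.6% of this probe's signal was left after Ino80 siRNA, with a 95% interval of 35.3% to 53.7%. The other Ino80 probes differed less between the knockdowns, by -0.55 and -0.12. Minus NT, the second probe stood at -0.47 after Ino80 siRNA and 0.08 after Ino80e siRNA. The dimmest probe stood at -0.92 and -0.80 in the same order, so it was below NT in both knockdowns. With the mean of the probes in place of the brightest one, the difference between the knockdowns was -0.61 and no longer called (adjusted p = 0.0769). The call was also lost without Ino80e replicate 1 (adjusted p = 0.0682) or replicate 2 (adjusted p = 0.0731).

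Ino80e itself read 4.76 and 4.61 after Ino80 siRNA, 3.64 and 3.42 after Ino80e siRNA, and 5.03 and 4.44 in NT. The Ino80e knockdown arrays were the lowest and did not overlap with the others. The difference of 1.16 ± 0.28 did not pass the test (adjusted p = 0.0748). Against NT, 43.3% of the Ino80e signal was left, with a 95% interval of 27.7% to 67.8%, a fall that did not pass either (adjusted p = 0.0831). By the point estimates of the brightest Ino80 probe and the only Ino80e probe, both siRNAs left a similar share of their own target. The other Ino80 probes fell less against NT, and the wide interval for Ino80e allows a clearly larger or smaller share.

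**Figure D1:**
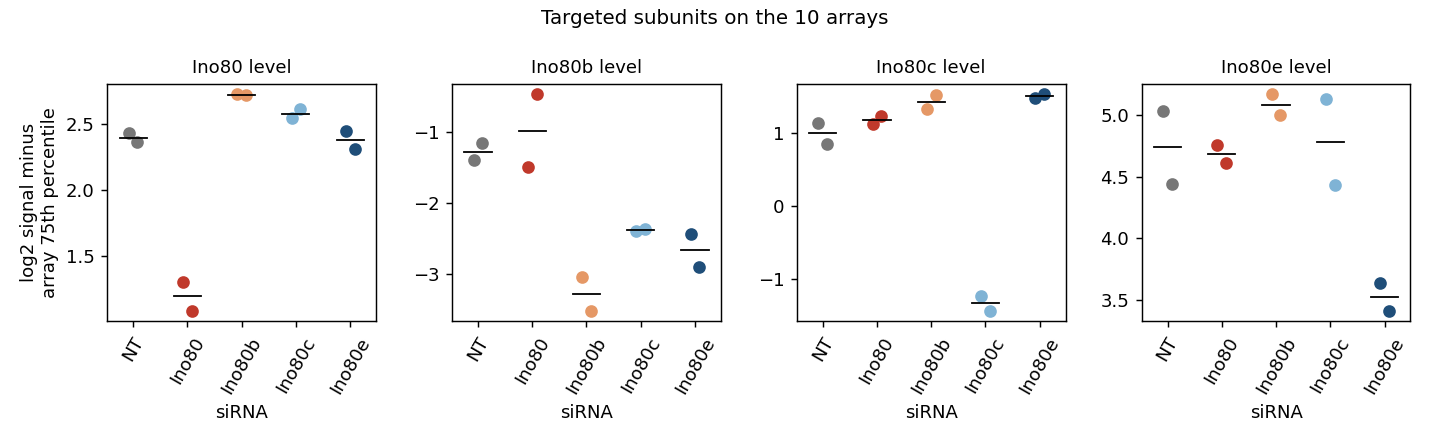
Level of the 4 targeted subunit genes on all 10 arrays, as log2 signal minus the 75th percentile of the array; each dot is an array, each bar the mean of a group's 2 arrays, and the y axes differ between panels. Ino80 sits at 1.31 and 1.09 after its own siRNA and Ino80e at 3.64 and 3.42 after its own, each below the remaining arrays of its panel.

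Of the 14 INO80 complex genes tested, Ino80 was the only one called. Over the alternatives run, 0 to 2 members were called higher and 0 to 2 lower, so this count was not stable. Ino80b, an accessory subunit, read -1.49 and -0.47 after Ino80 siRNA and -2.43 and -2.89 after Ino80e siRNA, against -1.39 and -1.15 in NT. The Ino80e knockdown arrays were the lower ones, but the difference of 1.68 ± 0.34 fell just short (adjusted p = 0.0512). The Ino80c arrays, on the same slide as the Ino80e arrays, were below NT for Ino80b too (-2.40 and -2.36). Actl6a, an actin-related subunit shared with other remodellers, differed by -0.43 ± 0.12 (adjusted p = 0.106), and its second probe by 0.11. Ino80c differed by -0.33 ± 0.15. The ATPases Ruvbl1 (-0.12) and Ruvbl2 (-0.06), the actin-related proteins Actr5 (0.00) and Actr8 (-0.15), and the remaining subunits Nfrkb (0.24), Mcrs1 (0.21), Tfpt (-0.02), Uchl5 (-0.06) and the DNA-binding Yy1 (0.02) all differed by less than 0.25 without passing the test.

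Across the transcriptome, 648 of 20662 genes were called, which is 3.14% of those tested, 238 of them higher (1.15%) and 410 lower (1.98%) after Ino80 siRNA than after Ino80e siRNA. The difference reached 2-fold in 396 genes, 121 higher and 275 lower. The median difference of all genes was -0.03. Non-overlap of the 4 arrays was common with so few arrays: it held for 22.7% of genes in the higher and 29% in the lower direction. The share of called genes that were higher, 36.7%, moved with the processing. It was 19.6% after normexp correction of the background, against 69.7% in the authors' deposited table, which differs both in background subtraction and in scaling. These shifted the median of all genes to -0.15 and 0.07.

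The number of calls also hung on single arrays. It was 44 without Ino80e replicate 2, 96 without Ino80e replicate 1, 190 without Ino80 replicate 2 and 231 without Ino80 replicate 1. Leaving out an Ino80b array gave 288, an Ino80c array 309 and an NT array 757, with the differences themselves unchanged. Fitted on the 4 arrays by themselves, limma called 0 genes at the threshold, with 3375 at an unadjusted p under 0.05 against 4080 in the fit of all arrays. Replicate arrays correlated at r = 0.991 in the Ino80 and 0.992 in the Ino80e group across genes, which are not independent. The share of detected probes ran from 66.4% to 79.0%, with Ino80 replicate 1 at the top, and no spot was saturated.

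The 3 lowest differences among all called genes were those of endoderm genes. Primitive endoderm is the extraembryonic layer that embryonic stem cells can form, driven by GATA and SOX factors and marked by receptors and basement membrane genes. Of 27 endoderm genes tested (30 listed), 12 were lower after Ino80 siRNA, 0 were higher and 15 did not pass, against 1.98% of all genes lower. At an unadjusted limma p under 0.05, 16 were lower and 2 higher. The median difference of the list was -0.92, beside -0.03 for all genes. Without Ino80e replicate 2 the count was 4, without Ino80e replicate 1 it was 6, and without either Ino80 array 9.

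Probes of 2 genes from the head of this list are shown, because their differences were among the 3 lowest of all called genes.
Pdgfra probe, chr5:74616116-74616175, plus strand: tgtatatatctgttgctatgtagacttgga
Cubn probe, chr2:13215519-13215578, minus strand: tctaaaagttggtgatacaaatagctgtat
Pdgfra, a receptor for platelet-derived growth factor that marks primitive endoderm, read -6.58 and -6.51 after Ino80 siRNA, -2.74 and -2.38 after Ino80e siRNA, and -2.97 and -3.25 in NT. On both Ino80 arrays the probe was not well above background, so the signal there is only a bound. In the main processing it was at least 13.6-fold lower than after Ino80e siRNA. The bound sets the brighter group's mean against the lowest detectable signal of the dimmer arrays or the probe's own, whichever was higher. The limma difference had an adjusted p of 0.00122, and p-values beside later bounds are likewise those of differences, not of bounds. Over the alternatives run, the Pdgfra difference ran from -4.23 to -1.54, so the bound does not hold under each of them.

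Cubn, the endocytic receptor cubilin of visceral endoderm, read -3.14 and -2.79 after Ino80 siRNA against 0.82 and 1.10 after Ino80e siRNA, with NT at 0.15 and -0.74. The Ino80e arrays were the highest of the 6 and the Ino80 arrays the lowest. Its difference was -3.93 ± 0.28 (adjusted p = 0.00256). Amn, which encodes the partner of cubilin, was lower as well, by 1.25 on the log2 scale (difference -1.25 ± 0.16).

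The transcription factors of the lineage also had their lowest levels on the Ino80 arrays among these 3 groups. Gata6, which specifies primitive endoderm, stood at -3.52 and -3.16 after Ino80 siRNA, at -0.14 and 0.10 after Ino80e siRNA, and at -0.15 and -0.29 in NT. Both Ino80e arrays lay slightly above both NT arrays, and both Ino80 arrays lay far below all of these. The difference of the brightest Gata6 probe was -3.32 ± 0.19 (adjusted p = 0.00122), while the smallest of its 3 probes gave -0.54. Sox7 (-3.13 ± 0.24) and Sox17 (-2.13 ± 0.27), SOX factors of endoderm, were lower too, although the second Sox7 probe gave only -0.60. Foxa2, a forkhead factor of definitive and visceral endoderm, differed by -2.34 ± 0.32. Gata4, another GATA factor of the lineage, differed by -0.92 ± 0.23 without passing (adjusted p = 0.09).

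Matrix and trafficking genes of endoderm made up the rest. Srgn, the proteoglycan serglycin, read -3.06 and -1.67 after Ino80 siRNA, 1.38 and 2.02 after Ino80e siRNA, and 0.79 and 0.60 in NT. This difference was the largest of the list at -4.06 ± 0.51 (adjusted p = 0.012), and its 2 Ino80 arrays also lay the farthest apart. Basement membrane genes were lower by less: Lama1 (-1.67 ± 0.18), Col4a2 (-1.42 ± 0.15) and Col4a1 (-1.09 ± 0.17), together with the endocytic adaptor Dab2 (-1.72 ± 0.17). Members without a call went both ways, with Foxa1 at 0.96 ± 0.57 and Krt19 at 0.88 ± 0.28 (adjusted p = 0.391 and 0.148) the farthest in the higher direction.

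The summed linear signal of 6 primitive endoderm markers (Gata6, Gata4, Sox17, Sox7, Dab2 and Pdgfra), in units of the array's 75th percentile, was 0.734 and 0.726 on the Ino80 arrays, 3.17 and 3.82 on the Ino80e arrays, and 2.86 and 2.52 in NT. All 6 were well above background in NT and after Ino80e siRNA, and 5 of 6 after Ino80 siRNA. It was 1.00 and 0.993 on the Ino80b arrays, which share the slide of the Ino80 arrays, and 1.89 and 2.35 on the Ino80c arrays. The sum was thus present in the control cells and lowest on the Ino80 arrays, with the Ino80b arrays next. The part that endoderm-like cells within the culture play in these differences was not tested.

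**Figure D2:**
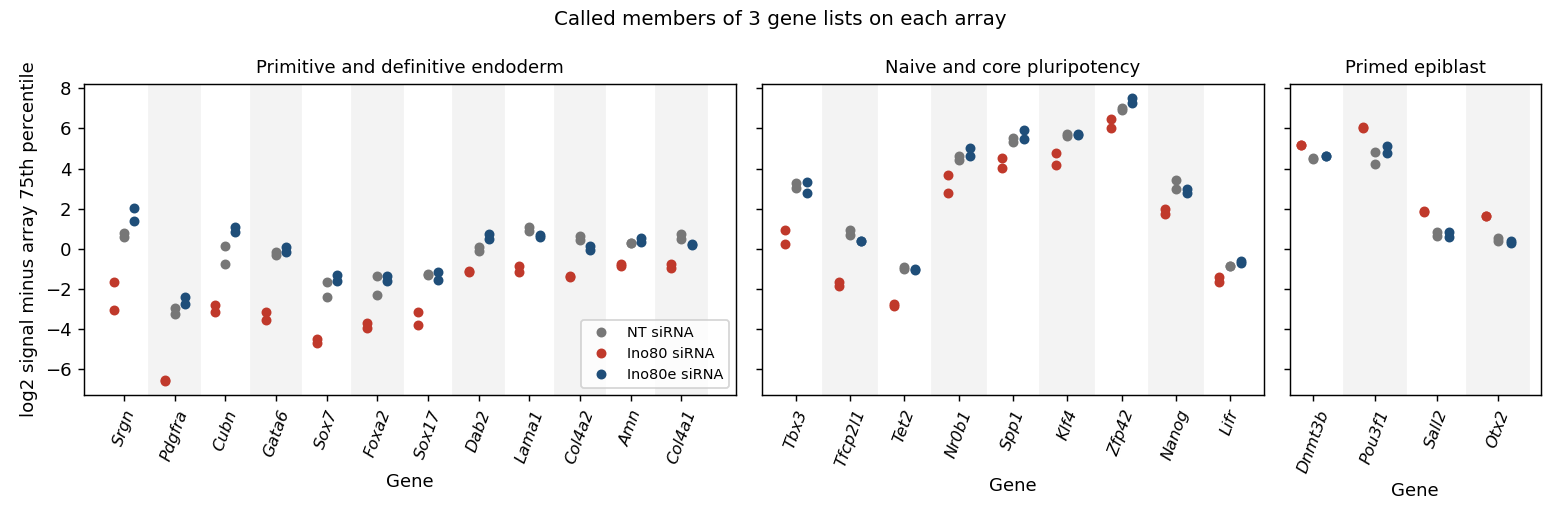
Level of each called member of the endoderm, pluripotency and primed epiblast lists on the 2 arrays of NT (grey), Ino80 siRNA (red) and Ino80e siRNA (blue), as log2 signal minus the 75th percentile of the array. Both red points lie below both blue points for the 12 endoderm and 9 pluripotency genes and above them for the 4 primed genes; the red Pdgfra points are not well above background.

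A minority of pluripotency genes was called. Of 38 tested (41 listed), 9 were lower after Ino80 siRNA, 0 were higher and 29 did not pass, beside 1.98% of all genes lower, with a list median of -0.47. At an unadjusted limma p under 0.05, 17 were lower and 2 higher. The count was 1 without Ino80e replicate 2, 2 without Ino80e replicate 1, 2 without Ino80 replicate 1 and 6 without Ino80 replicate 2, and 3 without an Ino80b or an Ino80c array. The naive state is the ground-state form of pluripotency, upheld by LIF signalling and KLF factors.

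Tbx3, a T-box factor of that network, read 0.23 and 0.96 after Ino80 siRNA, 2.81 and 3.31 after Ino80e siRNA, and 3.03 and 3.26 in NT. Tfcp2l1, a naive-state transcription factor downstream of LIF, read -1.86 and -1.67, then 0.40 and 0.41, then 0.68 and 0.96 in the same order. In both genes, among these groups, the Ino80 arrays lay apart and the Ino80e arrays lay near NT. The differences were -2.46 ± 0.32 for Tbx3 (adjusted p = 0.0131) and -2.17 ± 0.16 for Tfcp2l1 (adjusted p = 0.00256). The second Tbx3 probe gave -0.83. Lower levels of both genes were not particular to Ino80 siRNA. Tbx3 read 1.03 and 1.48 after Ino80b siRNA and 1.05 and 1.55 after Ino80c siRNA, below both Ino80e arrays. Tfcp2l1 read -1.22 and -1.28, then -0.81 and -0.53, in that order.

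Tet2, a dioxygenase that oxidises methylated cytosine, read -2.86 and -2.74 after Ino80 siRNA against -1.07 and -0.98 after Ino80e siRNA, a difference of -1.77 ± 0.17. The nuclear receptor Nr0b1 differed by -1.59 ± 0.31, with its 2 Ino80 arrays at 2.79 and 3.70. The other five called members, named here after their values were seen, were Spp1 (-1.41), Klf4 (-1.22), Zfp42 (-1.15), Nanog (-1.04) and the LIF receptor Lifr (-0.86). Esrrb, an orphan nuclear receptor of the same network, missed the threshold at -1.31 ± 0.28 (adjusted p = 0.0563).

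Other central factors of the network did not pass. Pou5f1, which encodes Oct4, read 4.63 and 4.65 after Ino80 siRNA, 4.85 and 4.95 after Ino80e siRNA, and 5.22 and 5.54 in NT. Its difference of -0.26 ± 0.15 had an adjusted p of 0.389. Sox2 (-0.30 ± 0.18) and Sall4 (-0.04 ± 0.15) were not called either. Sall4 read 3.80 and 3.51 after Ino80 siRNA, 3.75 and 3.65 after Ino80e siRNA, and 4.19 and 4.37 in NT. Like Pou5f1, it was thus below NT in both knockdowns, whereas Sox2 overlapped with NT in both. The largest values in the higher direction were those of Lin28a, an RNA-binding protein (0.47 ± 0.19), and Mycn (0.34 ± 0.12), both without a call. All 9 stem cell markers measured were well above background on each array. Their summed linear signal, mostly Dppa5a and Zfp42, was 418 and 502 after Ino80 siRNA, 657 and 735 after Ino80e siRNA, and 606 and 644 in NT. It was 505 and 590 on the Ino80b arrays and 595 and 584 on the Ino80c arrays, between Ino80 siRNA and NT. Nanog, Zfp42 and Esrrb lay below both Ino80e arrays on every Ino80b and Ino80c array too. For Pou5f1, Sox2 and Dppa5a both Ino80b arrays lay below both Ino80e arrays, while the Ino80c arrays overlapped with the Ino80e arrays. For Sall4 both Ino80c arrays lay above both Ino80e arrays, and the Ino80b arrays overlapped with them. In Utf1 and Tdgf1 both groups overlapped with the Ino80e arrays.

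Primed epiblast genes, which mark the step after the naive state, lay the other way. Of 23 tested, 4 were higher after Ino80 siRNA and 0 lower, beside 1.15% of all genes higher, and the list median was 0.51. Unadjusted, 10 were higher and 1 lower at a limma p under 0.05. None of the 4 calls remained without Ino80e replicate 2, and 2 calls were made without Ino80e replicate 1, without either Ino80 array, or without an Ino80b or Ino80c array, while 7 were made without an NT array. Otx2, a homeobox factor of the early epiblast, read 1.63 and 1.65 after Ino80 siRNA, 0.41 and 0.29 after Ino80e siRNA, and 0.39 and 0.56 in NT. Its difference was 1.29 ± 0.13 (adjusted p = 0.00582), and the Ino80 arrays stood above both other groups.

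Pou3f1, the POU factor Oct6, read 6.03 and 6.07 against 5.12 and 4.79 after Ino80e siRNA, with NT at 4.80 and 4.25 (difference 1.10 ± 0.21, adjusted p = 0.0443). Sall2 differed by 1.16 ± 0.13, and the de novo DNA methyltransferase Dnmt3b by 0.59 ± 0.11 (adjusted p = 0.0426), less than 2-fold. Fgf5, a classical primed marker, differed by 0.79 ± 0.25 without passing (adjusted p = 0.144). In the lower direction the uncalled members went no farther than Etv4, an ETS factor downstream of FGF (-0.56 ± 0.14), with Nodal, the TGF-beta family ligand, next at -0.33 ± 0.18.

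The rare 2-cell-like state is one in which cultured stem cells switch on early-embryo transcripts. Of its 17 listed genes 8 could be tested. Of them, 2 were called higher, beside 1.15% of all genes, while 0 were lower and 6 did not pass. The list median was 0.92. Unadjusted, 6 were higher and 1 lower at a limma p under 0.05. Zscan4c, a telomere-linked zinc finger gene of that state, read 2.49 and 2.00 after Ino80 siRNA, 1.18 and 1.00 after Ino80e siRNA, and -0.47 and -0.70 in NT. The 3 groups were ordered without overlap, with Ino80e siRNA between NT and Ino80 siRNA. The difference between the knockdowns was 1.15 ± 0.22 (adjusted p = 0.0438).

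Usp17la, a deubiquitinase gene of the same kind, gave the same order of groups and a difference of 1.26 ± 0.25 (adjusted p = 0.0491). Eif1a, in the lower direction, differed by -0.25 ± 0.11 and did not pass. Both calls sat near the threshold, and neither was made without an Ino80 or Ino80e array, an NT array or an Ino80b array, whereas 1 was made without an Ino80c array. Probes for Zscan4 and Usp17l genes can bind near-identical family members, so the signal cannot be assigned to a single copy.

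Among signalling genes, ligands and antagonists differed most. Dkk1, a secreted Wnt antagonist, read -5.20 and -5.15 after Ino80 siRNA, -1.55 and -1.40 after Ino80e siRNA, and -1.71 and -2.44 in NT. The Ino80 arrays were separated from the rest, and the difference was -3.69 ± 0.23 (adjusted p = 0.00161), with -2.27 at its second probe. Of 31 Wnt genes tested, 3 were lower and 1 higher, beside 1.98% and 1.15% of all genes. The list median was 0.05. The receptor gene Fzd5 (-1.10 ± 0.14) and the antagonist Sfrp1 (-0.93 ± 0.14) were the other lower genes, although a second Fzd5 probe gave 0.12, and the receptor gene Fzd2 was higher (0.89 ± 0.13). Without an Ino80 or Ino80e array, 0 Wnt genes were called higher and 1 to 3 lower.

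The BMP and Nodal list, covering ligands, receptors and targets of the TGF-beta family, had 2 higher and 2 lower genes of 36. Of all genes, 1.15% were higher and 1.98% lower. Bmp4, the ligand that supports self-renewal beside LIF and also patterns mesoderm, read 0.22 and -0.05 after Ino80 siRNA, 2.21 and 2.30 after Ino80e siRNA, and 2.54 and 2.97 in NT. Its Ino80 arrays lay below all 4 others, and the difference was -2.17 ± 0.18 (adjusted p = 0.00361). Inhbb, an activin subunit gene, was lower by 2.35 on the log2 scale (-2.35 ± 0.26), while its second probe gave -0.36. Inhba, the other activin subunit gene, was higher (1.64 ± 0.30) at a low level, and the BMP ligand gene Bmp8b was higher by 0.77 ± 0.13. Neither higher call was made without an Ino80 or Ino80e array, and 1 lower call was made without either Ino80e array. No FGF and ERK gene was called among 32 by limma, with 5 at an unadjusted p under 0.05. Limma gave calls to 2 of 24 neuroectoderm genes, both lower, beside 1.98% of all genes lower. They were the adhesion molecule Ncam1 (-1.63 ± 0.27), whose 8 probes ranged from -1.63 to 0.34, and the homeobox factor Gbx2 (-1.01 ± 0.13). Of these 2 calls, 0 were made without either Ino80e array and 1 without either Ino80 array. Bmp4 was the only called gene of the 25 primitive streak and mesoderm genes, beside 3.14% of all genes called.

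Epithelial and trophectoderm genes split in both directions. Of 33 epithelial genes tested, 4 were higher and 4 lower, beside 1.15% and 1.98% of all genes. The list median was 0.52. 20 of the 33 had both Ino80 arrays above both Ino80e arrays, beside 22.7% of all genes. The higher ones were the desmosomal genes Dsp (1.19 ± 0.23) and Dsc2 (0.97 ± 0.18), the claudin gene Cldn7 (0.93 ± 0.12) and Epcam (0.70 ± 0.13). The E-cadherin gene Cdh1 differed by 0.52 ± 0.13 and did not pass (adjusted p = 0.0868). The calls for higher genes were lost without any of the Ino80 or Ino80e arrays, and 1 was made without an Ino80b or Ino80c array; the 4 lower calls were 2 without either Ino80e array or Ino80 replicate 2.

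Lower genes of the epithelial list included the lectin gene Lgals3, the connexin gene Gjb5 and Zeb1, a repressor of epithelial genes (-1.64 ± 0.22). Lgals3 read 1.60 and 1.43 after Ino80 siRNA, 3.71 and 3.60 after Ino80e siRNA, and above 4 on both NT arrays, a difference of -2.14 ± 0.18 (adjusted p = 0.0038). Gjb5 (-2.10 ± 0.14) had the same order of groups, with the Ino80e arrays between NT and the Ino80 arrays. Lgals3 and Gjb5 are also in the trophectoderm list, where 4 of 29 were lower and 2 higher, beside 1.98% and 1.15% of all genes. Without an Ino80 or Ino80e array the 2 higher calls were lost, and without either Ino80e array or Ino80 replicate 2 the lower calls were 2. Gata2, a trophoblast GATA factor, was among the lower ones (-1.33 ± 0.19), whereas Cdx2 (0.37 ± 0.12) and Gata3 (1.44 ± 0.82) were not called.

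Markers of fibroblasts, which serve as feeder cells in many stem cell cultures, were checked because they would mark another cell type. Of 27 tested (30 listed), 3 were higher after Ino80 siRNA and 0 lower, beside 1.15% of all genes higher, with a median of 0.68. Both Ino80 arrays were on top in 18 of the 27, beside 22.7% of all genes. Unadjusted, 10 were higher and 3 lower at a limma p under 0.05. The 3 were Dcn, a matrix proteoglycan (1.63 ± 0.32), the actin-binding Tagln (1.30 ± 0.15) and the fibrillar collagen gene Col5a2 (1.02 ± 0.15). No call was made without Ino80 replicate 2 or either Ino80e array, 1 without Ino80 replicate 1 or an Ino80b array, and 2 without an NT array.

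Of the 6 defining fibroblast markers, all but Thy1 lay at least 1 log2 unit below the 75th percentile on every array. Lum was below background on the Ino80 and Ino80e arrays, and Postn was above it on 1 of those 4 arrays. The highest member was Thy1, near the 75th percentile, and it read lower rather than higher after Ino80 siRNA (-0.44 ± 0.17, not called). Col1a1 (0.85 ± 0.26), Col1a2 (0.48 ± 0.27) and Col3a1 (0.48 ± 0.26) did not pass. The summed linear signal of the 6 was 1.31 and 1.72 on the Ino80 arrays, 1.42 and 1.64 on the Ino80e arrays, and 1.25 and 1.46 in NT, so that the groups overlapped. This sum is mostly Thy1. Without it, a sum taken after the values were seen, the other five gave 0.58 and 0.8 on the Ino80 arrays, 0.377 and 0.461 on the Ino80e arrays and 0.392 and 0.421 in NT, with both Ino80 arrays above these, while the Ino80c arrays, at 0.603 and 0.616, lay between the Ino80 arrays. Over all 30 listed markers the sum was 80.5 and 77 after Ino80 siRNA, 67.5 and 58.7 after Ino80e siRNA, and 81 and 68.8 in NT. Their part in the higher matrix genes was not tested.

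Lists of general cell functions held few calls, beside 3.14% of all genes called. Among ribosomal protein genes 0 of 77, and among respiratory chain genes 0 of 66, were called by limma, with 7 and 21 at an unadjusted p under 0.05 beside 4080 of all 20662. In 60 and 43 of them both Ino80 arrays lay below both Ino80e arrays, beside 29% of all genes. The list medians were -0.23 and -0.27. Relative to the median of all genes they were -0.20 and -0.24, and -0.01 and -0.11 after quantile normalization, so that their size, though not their sign, moved with the scaling of the arrays. One gene was called in each of several lists: Ccnd3, a G1 cyclin (-0.79), the Polycomb gene Eed (-0.75), the remodeller subunit gene Smarcd3 (-1.41), the piRNA-pathway gene Piwil4 (-1.61), the sterol enzyme gene Hsd17b7 (1.06), the imprinted gene Magel2 (0.79) and Dicer1 (0.99), which encodes the nuclease that makes small RNAs. The antiviral oligoadenylate synthetase genes, Oas1a (-1.61 ± 0.19) and Oas2 (-1.22 ± 0.14), were the calls among 30 interferon response genes. They were 6.67% of that list, beside 1.98% of all genes lower, and both calls depended on Ino80e replicate 2. The interferon list median lay the other way, at 0.21, with 5 genes higher and 6 lower at an unadjusted limma p under 0.05. The calls of Ccnd3, Eed, Hsd17b7 and Magel2 were lost without any single Ino80, Ino80e, Ino80b or Ino80c array, that of Smarcd3 without either Ino80e array, and that of Piwil4 without either Ino80e array or Ino80 replicate 2. Dicer1 was not called without Ino80 replicate 2 (adjusted p = 0.0816), either Ino80e array, an Ino80b array or an Ino80c array, nor with the mean of its probes (0.57, adjusted p = 0.152). The lists of p53 targets, integrated stress response, glycolysis and hypoxia, Hox and histone genes had 0 calls by limma, with 4, 0, 5, 3 and 2 genes in that order at an unadjusted p under 0.05.

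**Figure D3:**
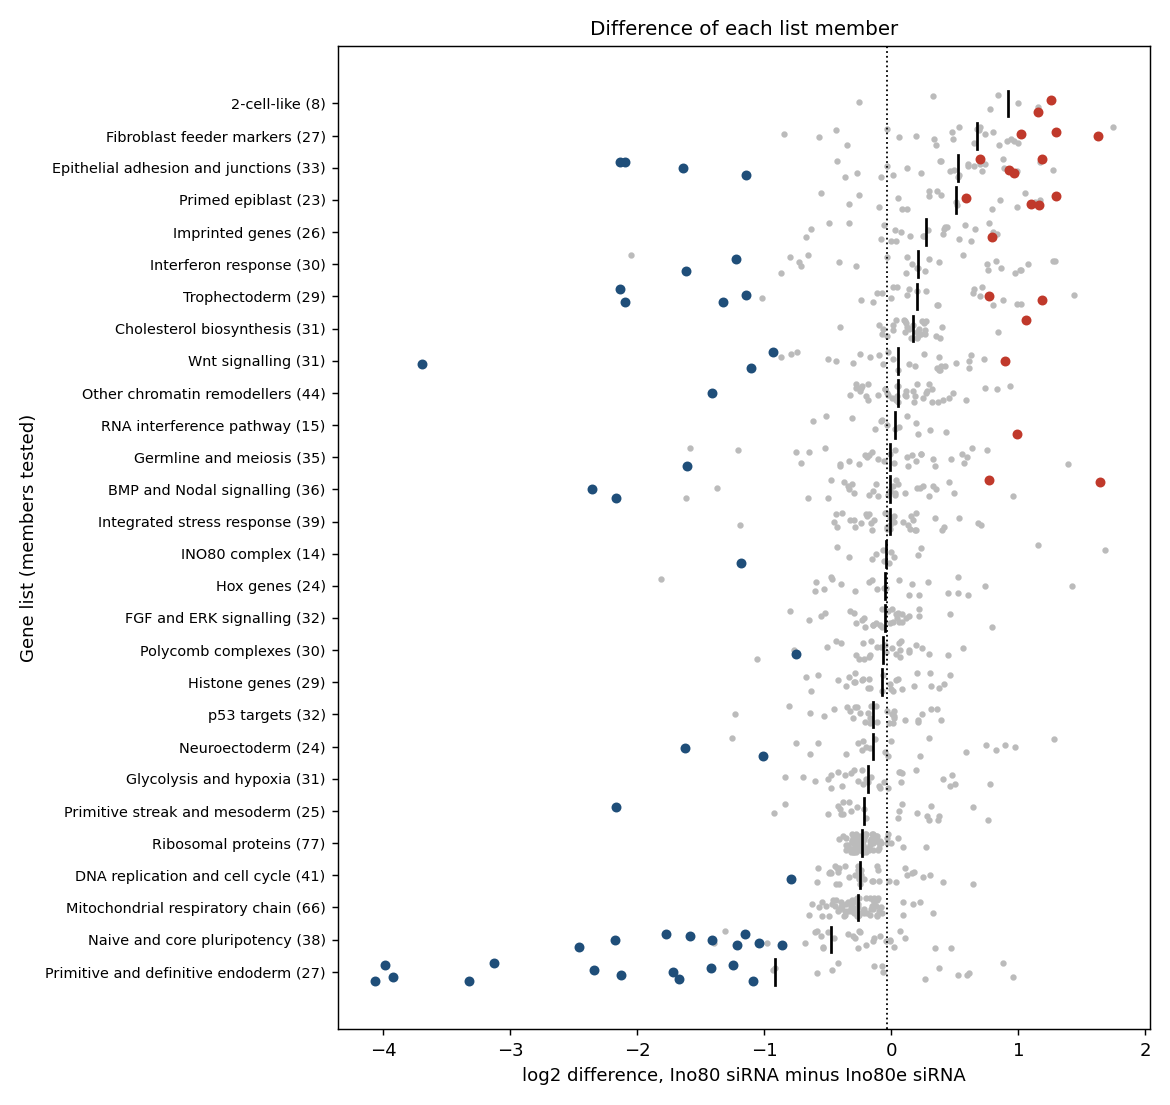
Log2 difference, Ino80 minus Ino80e knockdown, of every tested member of the 28 gene lists; red and blue dots are genes called higher and lower, grey dots were not called, black bars are list medians and the dotted line is the median of all genes (-0.03). The endoderm list has the lowest median (-0.92) and the 2-cell-like list the highest (0.92).

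Outside the lists, the largest differences in the lower direction included genes of varied function. Tfec, a transcription factor of the MITF family, read -6.51 and -6.39 after Ino80 siRNA, where 1 of the 2 arrays was above background, and -2.87 and -2.39 after Ino80e siRNA, with -1.57 at its second probe. Aqp8, a water channel, differed by -3.26 ± 0.30, Cyp4f14, a cytochrome P450, by -3.24 ± 0.18, and Gpr83, an orphan-type receptor, by -2.99 ± 0.30. Slc11a1, a metal ion transporter, differed by -2.87 ± 0.28. Foxf2, a forkhead factor, was not above background on the Ino80 arrays and at least 2.22-fold lower there in the main processing (adjusted p = 0.0314). Its difference ran from -3.14 to -0.50 over the alternatives run.

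Naip6 stood apart from these genes in where the control lay. It read -6.32 and -6.92 after Ino80 siRNA, -3.72 and -3.56 after Ino80e siRNA, and -7.67 and -6.71 in NT. The Ino80e arrays were high and the Ino80 arrays lay near NT, at a signal that only 1 of the 2 Ino80 arrays raised above background. Its difference was -2.98 ± 0.42 (adjusted p = 0.0161), and it belongs to a family of near-identical genes. Against NT itself, limma called a single gene after Ino80e siRNA (0.00484% of those tested), the unnamed transcript AK086512. Across the 648 called genes the NT mean lay between the 2 knockdowns in 349, above both in 168 and below both in 131. The NT arrays were on the first slide, and the median of all genes was 0.16 higher than NT after Ino80 siRNA and 0.19 higher after Ino80e siRNA.

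The largest higher values came mostly from dim probes. Slc39a8, a zinc and manganese transporter, was an exception: it read 0.90 and 1.11 after Ino80 siRNA, -0.66 and -0.99 after Ino80e siRNA, and -1.14 and -1.45 in NT. The difference was 1.83 ± 0.18 (adjusted p = 0.00571), and its second probe gave 1.54. Ms4a4d, a membrane-spanning family member, was well above background throughout and higher by 1.72 ± 0.16.

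Lce1d, a cornified envelope gene of a multigene family, was not above background on the Ino80e arrays. It was at least 2.23-fold higher after Ino80 siRNA (adjusted p = 0.00315 for the limma difference, not for the bound). Lce1d and Olah were above background on the Ino80 arrays alone. They entered the test only through the group where they are high, so their p-values are no support. Bounds were at least 1.84-fold for Olah (adjusted p = 0.0232), 2.65-fold for Arsj (adjusted p = 0.00987) and 2.14-fold for Gpld1 (adjusted p = 0.0152). Over the alternatives run, the differences shrank to as little as 0.07 for Lce1d, 0.08 for Olah, 0.07 for Arsj and 0.005 for Gpld1. Their bounds thus hold for the main processing only. Foxd4 (at least 2.51-fold) and Dpyd (at least 1.14-fold) were not above background on the Ino80e arrays either. The sign of both turned under normexp background correction, to -0.02 and -0.17. Fras1, an extracellular matrix protein gene, differed by 1.86 ± 0.26 and was above background on 1 of the 2 Ino80e arrays. The sign of Plppr4 (1.57 ± 0.26) turned to -0.25 under normexp correction. Of all 648 called genes, 28 were above background in a single knockdown, with neither array of the other above it; the dim side was Ino80e siRNA in 19 and Ino80 siRNA in 9.

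Because the 2 knockdowns lay on different slides, each was also set against the other knockdown of its own slide. The within-slide contrast is Ino80 minus Ino80b, less Ino80e minus Ino80c; any slide effect shared by the arrays of a slide cancels in it, and it also carries the effects of the Ino80b and Ino80c siRNAs. By limma, 15 genes were called in this contrast (0.0726% of those tested), 12 of them lower (0.0581%). It uses the same Ino80 and Ino80e arrays as the plain difference, so a shared sign is no independent evidence. Ino80c, the target of an siRNA in the contrast, was itself among the lower ones (-3.10). Among the 648 called genes 10 had the opposite sign in it, and all 10 were lower genes.

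Mras, a RAS-family GTPase gene, read -0.29 and -0.46 after Ino80 siRNA, 2.26 and 2.33 after Ino80e siRNA, and 2.55 and 2.58 in NT. Its difference of -2.67 ± 0.15 was nearly the same in the within-slide contrast (-2.54, adjusted p = 0.0268), and Ino80b minus Ino80c was -0.13. Myo1f, a class I myosin gene, differed by -2.33 ± 0.13 and by -2.17 within slides. Dmbx1, a homeobox gene (-2.70 and -2.63), Ankrd33b (-2.86 and -2.48) and the unnamed transcript 2310043M15Rik (-3.41 and -3.02) had plain and within-slide differences of like size too, although the second Dmbx1 probe gave a plain difference of -0.71. Bmp4 held a within-slide difference of -2.31 (adjusted p = 0.0486).

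Pdgfra was called within slides too (adjusted p = 0.0486), but its Ino80 signal was not above background, so no size is given; Ino80b minus Ino80c, where it was above background, was -1.40. In the higher direction Ms4a4d (2.08) was called within slides and above background in all groups. Lce1d was called as well, but it was above background on the Ino80 arrays alone, so that its within-slide value is no measured size. Tagln was next among well-measured genes, at 1.56 within slides (adjusted p = 0.0958) beside 1.30, followed by Prom1, a stem cell surface glycoprotein gene (1.48 beside 0.97). Sncb (2.09 beside 1.15) had like values, but its plain difference turned to -0.06 under normexp correction. That of Fxyd1 (1.01) turned to -0.04, and Fxyd1 was not above background on the Ino80e and Ino80b arrays.

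Ino80b minus Ino80c had the sign of the main difference in 8 of the 9 called pluripotency, 11 of the 12 endoderm and 3 of the 4 primed genes. The within-slide value was the larger part of the plain difference in 9, 8 and 4 of them, in that order. Among all 648 called genes these counts were 510 and 532. For the 9 called pluripotency genes Ino80b minus Ino80c ran from -0.70 (Tet2) to 0.09 (Klf4), and the within-slide value of Tbx3 was -2.41 beside -2.46. The larger part of that Tbx3 value lay between the Ino80c and Ino80e arrays, the smaller part between the Ino80 and Ino80b arrays. Srgn, Sox7 and Gata6 of the endoderm list had part of their difference in the other pair on the same slides, as Tet2 did. Ino80b minus Ino80c was -2.41 for Srgn, -1.46 for Sox7 and -1.34 for Gata6, leaving within-slide differences of -1.66, -1.67 and -1.99. Foxa2 went the other way, with 1.41 in that pair and -3.75 within slides. Only Pdgfra of the 12 endoderm genes, and 0 of the 9 pluripotency and 4 primed genes, was called in the within-slide contrast, whose standard errors are larger.

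Ino80b minus Ino80c shares no array with the main comparison but lies on the same 2 slides. It had the sign of the main difference in 510 of the 648 called genes (78.7%), against 59.1% of all genes tested. The share was 86.3% among the 410 lower and 65.5% among the 238 higher genes. By limma 6 genes were called in that pair (0.029% of those tested), and 4921511C04Rik was the single gene called with the same sign in both, which is 16.7% of the 6 and 0.154% of the 648. Whether the shared sign comes from the slides or from these subunits cannot be told apart.

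**Figure D4:**
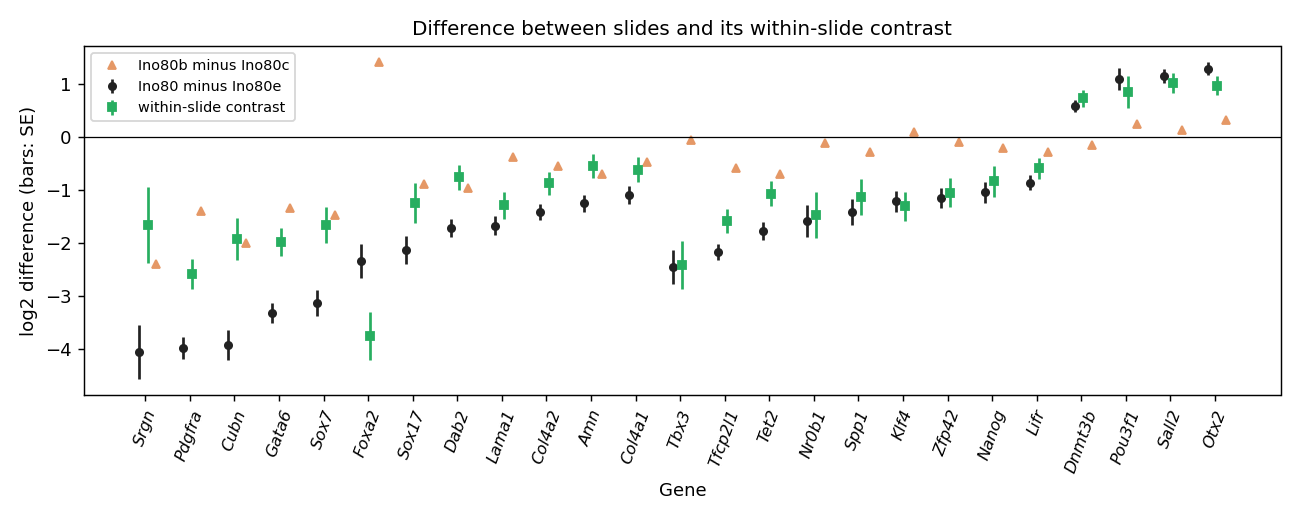
For the called endoderm, pluripotency and primed genes, in that order, the plain difference (black circles), the within-slide contrast (green squares) and Ino80b minus Ino80c on the same slides (orange triangles), on the log2 scale; bars are standard errors. Tbx3 is at -2.41 within slides, the larger part of it between the Ino80c and Ino80e arrays. Srgn goes from -4.06 to -1.66 and Foxa2 from -2.34 to -3.75. The Pdgfra circle and square rest on Ino80 signals not above background.

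Promoter letters were searched for 2 motifs, both chosen after the gene results were known: a GATA factor motif, since GATA genes were among those lower, and a motif of the YY1 protein, which is a member of the complex. The motif AGATAA on either strand, in RefSeq promoters of GRCm38.p6 from 250 bases before to 50 after the start, was in 21 of 267 promoters of genes called lower (7.87%), 7 of 165 called higher (4.24%) and 910 of 12094 of all tested genes with a promoter (7.52%). The share among lower genes was near that of all genes. The YY1 motif AAGATGGC, searched in the same way, was in 5 of 267 promoters of lower genes (1.87%), 3 of 165 of higher genes (1.82%) and 483 of the 12094 (3.99%). Over all 27025 promoters the shares were 11.4% for the GATA and 2.88% for the YY1 motif. These counts describe the letters in this window and were not tested.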

How the data were processed

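RNA of 10 samples (5 groups of 2) was hybridised to Agilent 1-colour arrays. Per the file headers, Feature Extraction 9.5.3.1 gave each spot a processed intensity, background-subtracted and not scaled between arrays; the labels name Cy5, while the files hold the green channel. The authors' deposited table holds log2 values, each column equal to the log2 mean signal of its array plus a constant of unknown origin, without background subtraction (medians 6.76 to 6.87).

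Control and flagged spots were left out, spots of a probe averaged, log2 taken and the 75th percentile subtracted, leaving 41143 probes. Probes well above background on both arrays of any group were kept, and the brightest stood for a gene. RefSeq (GRCm38.p6) named 22951 probes, 5141 with an updated symbol; 18223 kept the array's name, so a gene can appear under an old and a new symbol. A group-means model over the 10 arrays was fitted with limma (version 3.58.1, lmFit and eBayes, R 4.3.3); p-values are two-sided. The fit was tested on simulated data with spreads of 2 kinds. A first simulated set, with each gene's observed spread, gave more unchanged genes among its calls than the threshold allows; spreads from the fitted prior were then tried, and over repeated draws both kinds gave slightly more than the nominal share. The precision is limited by the number of arrays.

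The samples compared and the 28 gene lists were chosen with earlier results of these data known. Named genes were INO80 members, the 12 called genes highest and lowest with a RefSeq symbol that were above background in a knockdown, up to 4 called members per list and direction, up to 2 uncalled members of 4 lists, and 6 per direction from the within-slide contrast; other genes were chosen after their values were seen. No per-sample column was left unassigned.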

Additional observations from a re-analysis of the deposited data

How the results depend on the processing

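The number of genes called (648, with 238 higher and 410 lower) depended on background handling, scaling, filter and fit. It was 2989 with normexp background correction (585 higher, 2404 lower), 1661 in the authors' deposited table (1157 higher), 286 without a filter on dim probes (85 and 201), 1001 with probes well above background on all arrays (385 and 616), 1158 with a trended robust prior (412 and 746), and 0 on the 4 arrays alone (0 and 0). Leaving out single arrays gave 44 to 757 calls, 3 to 303 higher and 41 to 454 lower. The 15 calls of the within-slide contrast became 88, 25, 72, 0, 57 and 25 with normexp, quantile normalization, the deposited table, no filter, the trended prior and array weights, and 0 to 12 without single arrays. Same-numbered replicates do not share a stated source, so the numbers were not taken as pairs. Their deviations nevertheless correlated positively in each pair of groups, between 0.00418 and 0.321, with Ino80 and Ino80e at 0.282. A replicate block gave 1971 calls (870 higher, 1101 lower) and 99 in the within-slide contrast. Of the 72 named genes called, 5 changed sign, all under normexp: Foxd4 (-0.023), Dpyd (-0.17), Plppr4 (-0.25), Sncb (-0.055) and Fxyd1 (-0.038). The cause was not tested. Signals of dim probes bound the differences they can show, and 2 arrays per group limit every test.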

Other observations

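Some called genes outside the named ones encode proteins of the actin and myosin cytoskeleton. They are given because they were seen to be higher after Ino80 siRNA, so their shared direction is no result, and such genes were not tested as a group. By limma, the myosin light chain gene Myl9 stood 1.31 higher, at 3.37 against 2.06, and the calponin genes Cnn1 and Cnn2 stood 0.97 and 0.94 higher. The caldesmon gene Cald1 (1.17) and the LIM-domain gene Pdlim3 (1.22) were called too. Ino80b minus Ino80c was -0.23 for Myl9 and 0.66 for Pdlim3, and the within-slide differences were 1.54 and 0.57.

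Among oocyte and early-embryo maternal-complex genes, also picked after their values were seen, Khdc3 (-2.19) and Ooep (-1.47) were called lower. Khdc3 was called in the within-slide contrast as well, at -3.01 (adjusted p = 0.0268). The transcript AK086512, called between Ino80e siRNA and NT, read 3.84 higher after Ino80e siRNA and differed by -1.47 between the knockdowns.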
